A study of Mus musculus with 4 samples.

Results

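A set of 6 long noncoding genes was followed in 4 RNA sequencing libraries of mouse DN3 thymocytes: I730028E13Rik, Malat1, Neat1, Gas5, Snhg1 and Snhg12, out of the 23285 genes in the deposited table. They were picked by name, with earlier results of these libraries known, and I730028E13Rik in particular was picked for its difference between the genotypes. That difference is therefore described here and carries no p-value. Irradiated mice had received fetal liver cells from WT (wild type) donors or from donors labelled as the Gata3(g/g) hypomorph, and thymocytes at the DN3 stage were sorted 16 weeks afterwards. All 4 libraries carry the strain label C57BL/6, and each genotype has 2. The sources used here do not state how donor cells were told from cells of the recipient, the age of the animals, or whether separate animals gave the 2 libraries of a genotype, so p-values measure only the spread between these samples, which may be technical. The sequence identifiers place both replicates 1 in one sequencing run, called run 1, and both replicates 2 in another, called run 2. Where 4 values are given in a row, they stand for WT replicate 1, WT replicate 2, Gata3(g/g) replicate 1 and Gata3(g/g) replicate 2.

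Gata3, the gene named in the genotype, stood at 62.4 and 58.5 FPKM (a fragment count scaled to transcript length and library size) in the WT libraries and at 120 and 96.1 FPKM under the Gata3(g/g) label. Its RNA was higher under the hypomorph label, so the RNA level does not bear that label out. Protein and gene function were not measured in these libraries. Every direction below is that of the libraries as labelled. Fragments assigned to genes numbered 14331705 to 26901913 per library. All 8 markers of the DN3 stage were detected, with summed levels from 2209 to 2852 FPKM. Of these Il2ra, which encodes CD25, was higher under the Gata3(g/g) label, at 277, 261, 569 and 492 FPKM (log2 fold change 0.98 ± 0.181, edgeR adjusted p = 0.00262 with the sequencing run as a block). The other 7 markers did not pass with the block. Of the 8, 4 had negative log2 fold changes, and the median was -0.01, against 0.01 for all tested genes.

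Long noncoding genes are transcribed and usually spliced like messenger RNA genes but are not known to encode a protein of size. Malat1 is an abundant nuclear RNA of speckles, the bodies where splicing factors gather, and Neat1 is the RNA scaffold of the neighbouring paraspeckles. Gas5, Snhg1 and Snhg12 are host genes of small nucleolar RNAs (snoRNAs): the snoRNAs are cut from their introns and guide the modification of ribosomal RNA, while the spliced host RNA is exported and often degraded by nonsense-mediated decay. Many host genes start with a run of pyrimidines, the TOP sequence also found on ribosomal protein genes. No function of I730028E13Rik is stated in the sources used here.

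I730028E13Rik lies on the plus strand at chr9:61138515-61145259 of mm10, where GENCODE M21 annotates a lincRNA, ENSMUSG00000110998.1, with 1 transcript of 1959 bases. Its 3 exons measure 909, 177 and 873 bases. Because the genotype concerns a factor that binds GATA, the 300 bases of RefSeq sequence around its start site (GRCm38.p6, the build of mm10, 250 bases before to 50 after, chr9:61138265-61138564) are shown with each GATA on either strand in capitals.
I730028E13Rik promoter: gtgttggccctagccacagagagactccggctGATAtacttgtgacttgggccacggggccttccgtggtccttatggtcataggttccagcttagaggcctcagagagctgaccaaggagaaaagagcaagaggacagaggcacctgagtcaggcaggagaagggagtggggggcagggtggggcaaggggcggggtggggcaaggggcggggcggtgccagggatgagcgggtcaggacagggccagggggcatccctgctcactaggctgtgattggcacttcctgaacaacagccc
The window held 1 GATA, at -218 from the start site, and 57.9% of the 32851 RefSeq windows of this length hold at least 1. It held 0 copies of the longer form with A or T before GATA and A or G after it, which overlaps GATA by definition and which 29.8% of windows hold. It held 3 copies of GGGCGG on either strand, at -61, -44 and -39, a motif found in 35.7% of windows. No binding was measured in these libraries, and a match in letters is not a site.

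The starts of the genes are set side by side because host genes are known for their pyrimidine starts. Each line runs from 20 bases before the start to 30 bases into the transcript, on the gene's own strand, with the first 10 transcribed bases in capitals. RefSeq had a window for 5 of the 6 genes.
I730028E13Rik: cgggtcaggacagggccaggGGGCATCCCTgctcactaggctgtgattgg
Malat1: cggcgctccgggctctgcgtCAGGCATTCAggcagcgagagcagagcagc
Gas5: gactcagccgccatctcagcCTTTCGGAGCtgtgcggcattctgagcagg
Snhg1: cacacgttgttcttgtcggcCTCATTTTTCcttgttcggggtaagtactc
Snhg12: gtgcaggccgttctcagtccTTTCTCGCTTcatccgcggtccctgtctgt
C or T made up 9 of the first 10 bases in Snhg1 and in Snhg12, 6 in Gas5 and in I730028E13Rik and 5 in Malat1. At least 9 of 10 was found in 2.80% of all windows. A start of C followed by 4 pyrimidines was found in Gas5 and in 2.51% of all windows. RefSeq gives Gas5 a second window, with its start at position 161034601 of chromosome 1, ahead of the deposited locus, and that window has 4 pyrimidines in its first 10 bases and no such start. The one shown starts where the deposited locus does.

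I730028E13Rik had a low level in WT DN3 cells and was 22.7 times higher under the Gata3(g/g) label in run 1 and 36.7 times higher in run 2. It was counted with 104 fragments in WT replicate 1 and 60 in WT replicate 2, with exact 95% Poisson intervals of 85.0 to 126 and 45.8 to 77.2 that cover counting error only. Under the Gata3(g/g) label it was counted with 3144 and 2842 fragments. Both WT counts lie far below both others and the genotypes do not overlap.

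Scaled for length and depth, I730028E13Rik stood at 1.46 and 1.22 FPKM in WT (1.34 ± 0.170, SD, n = 2) and at 33.2 and 45.0 FPKM under the Gata3(g/g) label (39.1 ± 8.32, SD, n = 2). By FPKM it ranked 9438 and 9864 among 23282 genes in WT and 1663 and 1165 under the Gata3(g/g) label. In sorted bulk cells, a larger share of cells with the transcript and more transcript per cell cannot be told apart.

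The fitted log2 fold change of I730028E13Rik was 4.86 ± 0.277 (SE) with genotype alone in the model and 4.83 ± 0.188 with the run as a block. Of the 10224 genes tested, 8 had a larger absolute fold change with the block. The authors' deposited table lists a log2 fold change of 4.86. With the block, 1 of the 6 noncoding genes passed the threshold of 0.05, this one, where 6.90% of all tested genes passed. Without the block 0 of the 6 passed by edgeR, where 0% of all genes did, although 393 genes had an unadjusted p under 0.05 and DESeq2 called 88. The gene was picked on this difference, and nothing is read from these counts.

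**Figure D1:**
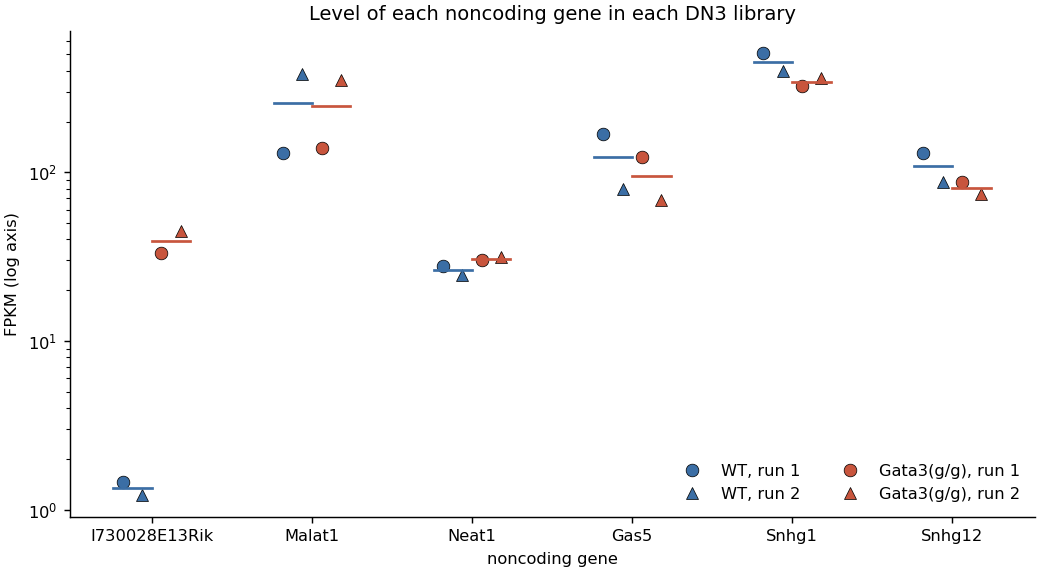
Level of each of the 6 noncoding genes in each library, in FPKM on a log axis. Circles are run 1, triangles run 2, blue WT and red Gata3(g/g), and horizontal lines are the means of the 2 libraries. I730028E13Rik is near 1 FPKM in both WT libraries and at 33.2 and 45.0 FPKM in the other two, while Malat1 and Gas5 separate by run.

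Markers of other cell types also moved with the genotype labels. Of the 7 gamma-delta T cell markers listed 5 were found in the table, and of these 4 were higher and 1 lower with the block, none was at 0, and their summed level was 32.4 to 42.7 FPKM in WT and 89.0 to 142 FPKM under the Gata3(g/g) label. The mast cell and basophil markers summed to 48.7 to 55.7 FPKM in WT and 8.17 to 8.49 FPKM in the others. In WT that sum was carried by Cpa3, a carboxypeptidase of mast cell granules that early T cell precursors can also express. Cpa3 had a log2 fold change of -4.44 ± 0.212 with the block. Under the Gata3(g/g) label Kit was the larger part, at 5.34 and 6.90 FPKM against 2.73 and 1.55 for Cpa3. Kit did not pass (0.20, edgeR adjusted p = 0.460 with the block), and Fcer1a and Mcpt4 were at 0 in all libraries. Double-positive markers summed to 3.88 to 7.003 FPKM in WT and 10.5 to 11.3 FPKM in the others, with 2 of 3 tested markers higher, and myeloid markers to 13.3 to 17.1 and 19.002 to 25.2 FPKM, with 1 of 3 higher. Lyz2, a lysozyme gene, stood at 9.93, 4.203, 18.7 and 13.6 FPKM. It was the largest part of the myeloid sum in all libraries but WT replicate 2, where Cd68 was, at 6.02 FPKM. Cd68 and Fcer1g did not pass and had negative log2 fold changes (-0.43 and -0.74). The part of any of these cells in the level of I730028E13Rik was not tested.

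None of the 6 listed neighbours of I730028E13Rik differed by as much as it did within either run. Its nearest listed neighbour, B930092H01Rik at 113967 bases, had 17, 24, 43 and 42 fragments and stayed below the level needed for testing. Gm5122, 118717 bases on the other side, had 15, 11, 66 and 19 fragments, so 1 of the libraries labelled Gata3(g/g) was high and the other was near WT. Tle3, a Groucho-family corepressor 227106 bases away, stood at 69.1, 104, 80.5 and 86.6 FPKM, a log2 fold change of -0.01 with the block (edgeR adjusted p = 0.974).

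Uaca, which encodes a coiled-coil and ankyrin repeat protein 258144 bases away, was the 1 neighbour of I730028E13Rik that passed with the block. It stood at 5.12, 7.91, 9.67 and 14.5 FPKM, higher in both libraries labelled Gata3(g/g) than in either WT library and higher in run 2 within each genotype. Its log2 fold change was 0.90 ± 0.135 with the block (edgeR adjusted p = 0.000401), and it did not pass without the block (edgeR adjusted p = 0.9997) or by limma with it (adjusted p = 0.0935). Over all 6 noncoding genes, 21 of the 30 other neighbouring genes were tested, and 1 was higher and 3 lower with the block, against 3.90% and 2.99% of all genes.

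**Figure D2:**
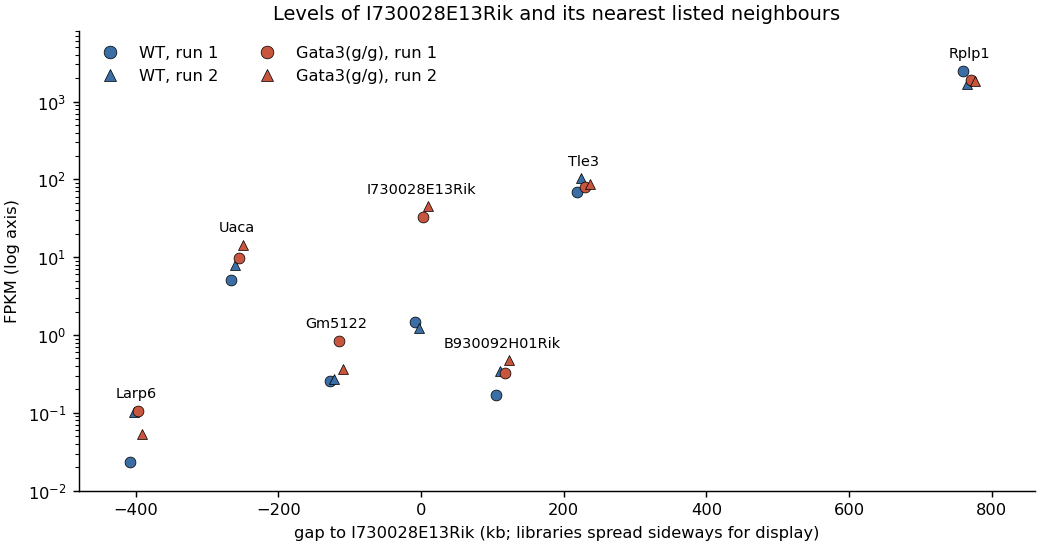
Level of I730028E13Rik and its 3 nearest listed genes on each side, in FPKM on a log axis, against the gap between the gene bodies in kilobases. Circles are run 1, triangles run 2, blue WT and red Gata3(g/g). Only I730028E13Rik has its WT points more than 10 times below both others, Uaca shows a smaller shift, and Tle3 and Rplp1 have overlapping genotypes.

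The tested genes with the profile most like that of I730028E13Rik were found by the Euclidean distance between log2(FPKM + 1) values over the 4 libraries, each centred on its own mean. They were Snora69 (distance 0.86), Snora16a (1.43), Ly86 (1.43), Cox6a2 (1.52) and Cd163l1 (1.92). Snora69 and Snora16a are snoRNAs with 0, 0, 5 and 5 and with 0, 0, 3 and 7 fragments, so their likeness rests on few fragments. Snora16a lies inside Snhg12. Ly86, the partner protein of the RP105 receptor, stood at 0.879, 1.24, 9.02 and 16.9 FPKM. Cox6a2, a muscle-type subunit of cytochrome c oxidase, stood at 1.27, 2.54, 15.3 and 19.2 FPKM. Cd163l1, a scavenger receptor used as a gamma-delta T cell marker, stood at 11.4, 7.38, 54.1 and 42.5 FPKM. In all 5 genes both WT libraries were below both libraries labelled Gata3(g/g), as the search itself selects.

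Among the other noncoding genes the levels in FPKM ran in the same order in both genotypes. This order depends on the transcript length to which each count was scaled. By fragments, Malat1 and Gas5 were above Snhg1 in every library (35249, 15971 and 6296 in WT replicate 1), and Neat1 was above Snhg12. In FPKM, Snhg1 had the highest mean (454 ± 76.7 in WT and 344 ± 25.1 under the Gata3(g/g) label, SD, n = 2), followed by Malat1 (257 ± 178 and 247 ± 152), Gas5 (124 ± 63.5 and 95.6 ± 38.1) and Snhg12 (109 ± 29.9 and 80.8 ± 9.69). Neat1 followed at 26.3 ± 2.31 and 30.7 ± 0.886 FPKM. By FPKM, I730028E13Rik was last in WT and above Neat1 under the Gata3(g/g) label, while by fragments it was below Neat1 in every library. The ranges of Malat1 and Gas5 overlapped in WT, those of Gas5 and Snhg12 in both genotypes and those of Snhg1 and Malat1 under the Gata3(g/g) label.

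Malat1 differed between the runs more than between the genotypes. It lies on the minus strand at chr19:5795690-5802671 and was counted with 35249, 71348, 49974 and 85657 fragments, which were 0.167%, 0.498%, 0.186% and 0.475% of the libraries. In FPKM it stood at 131, 382, 139 and 355, so that both run 2 libraries were above both run 1 libraries whatever the genotype. The run 2 level was 2.92 times that of run 1 in WT and 2.54 times under the Gata3(g/g) label. The run difference was 1.47 ± 0.184 on the log2 scale (SE, edgeR adjusted p = 2.30e-05). The genotype difference in log2 CPM (a count scaled to library size) was 0.11 in run 1 and -0.12 in run 2.

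Neat1, whose locus lies 39630 bases from that of Malat1, did not pass the test between the runs. It was counted with 3328, 2031, 4774 and 3337 fragments and stood at 27.9, 24.7, 30.1 and 31.4 FPKM. Its run difference was -0.04 ± 0.124 on the log2 scale (SE, edgeR adjusted p = 0.837). By genotype it was higher by 0.13 log2 CPM in run 1 and 0.34 in run 2 under the Gata3(g/g) label, and the libraries did not overlap.

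The deposited locus of Neat1, chr19:5842302-5845478 on the minus strand, spans 3177 bases. That is 15.3% of the 20771 bases that GENCODE gives the gene. The start of the transcript, common to the short and the long form, lies in the deposited locus, and the body of the long form that builds paraspeckles lies outside it. These values therefore do not tell the forms apart. Of the 6 noncoding genes, the genotypes did not overlap in 3 (I730028E13Rik, Neat1 and Snhg1), where 29.0% of all tested genes do not overlap. The genes were picked with earlier results known, I730028E13Rik for this very difference, and nothing is read from this count.

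**Figure D3:**
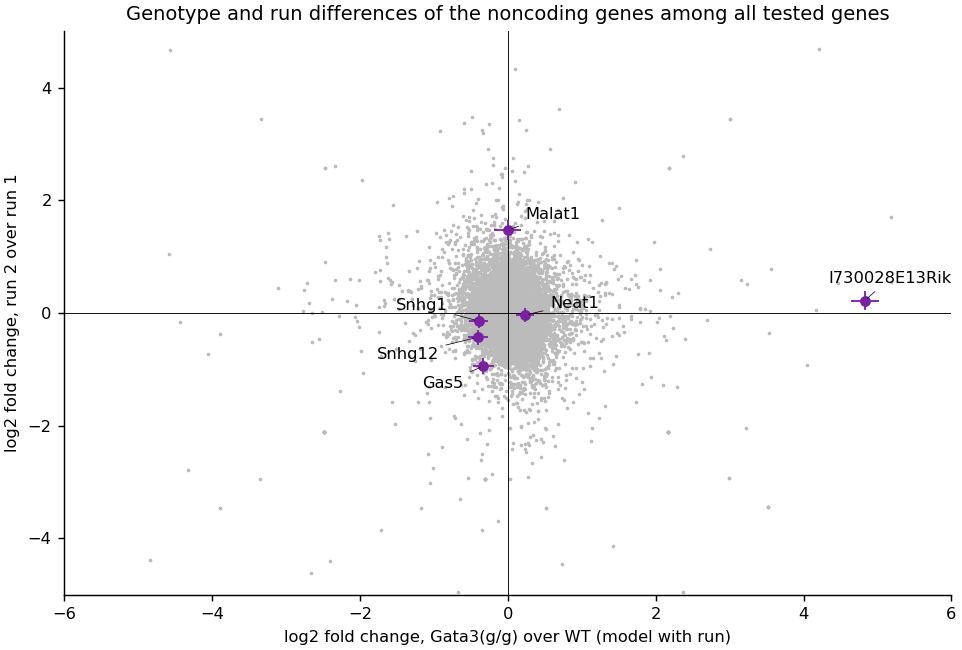
Each grey point is a tested gene, with its log2 fold change by genotype on the horizontal axis and by run on the vertical axis, both from the model that holds both terms. Purple points are the 6 noncoding genes with standard errors. I730028E13Rik lies at 4.83 on the genotype axis, Malat1 at 1.47 and Gas5 at -0.95 on the run axis, and 27 genes lie outside the axes.

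The 3 snoRNA host genes were each lower under the Gata3(g/g) label within both runs, by less than 1 log2 unit. Gas5, at chr1:161035166-161038537 on the plus strand, is a host gene known to accumulate when cell growth stops. It was counted with 15971, 5170, 15423 and 5783 fragments and stood at 169, 79.2, 123 and 68.6 FPKM. Run 1 was above run 2 in both genotypes, and the genotypes overlapped. Its genotype difference in log2 CPM was -0.44 in run 1 and -0.22 in run 2, with a fitted value of -0.33 ± 0.145 (SE, with the block).

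Snhg1, at chr19:8723487-8726326 on the plus strand, was counted with 6296, 3341, 5476 and 3809 fragments. It stood at 508, 399, 326 and 362 FPKM, so both WT libraries were above both libraries labelled Gata3(g/g). The genotype difference in log2 CPM was -0.60 in run 1 and -0.19 in run 2, with a fitted value of -0.39 ± 0.132. Snhg1 therefore stood lower by the larger amount in run 1.

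Snhg12, at chr4:132308678-132311024 on the plus strand, was counted with 2277, 1043, 2068 and 1118 fragments and stood at 130, 87.5, 87.6 and 73.9 FPKM. WT replicate 1 was the high library, and WT replicate 2 was level with Gata3(g/g) replicate 1. The genotype difference in log2 CPM was -0.53 in run 1 and -0.28 in run 2, with a fitted value of -0.41 ± 0.136. With genotype alone in the model, it ran from -0.13 without WT replicate 1 to -0.68 without WT replicate 2. The authors' deposited table lists log2 fold changes of -0.38 for Gas5, -0.40 for Snhg1 and -0.43 for Snhg12.

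Between the runs, a comparison that the choice of genes did not use, 3 of the 6 noncoding genes passed the test, where 34.8% of all tested genes did. Malat1 was the 1 that rose in run 2 (17.5% of all genes did) and Gas5 and Snhg12 were the 2 that fell (17.3%). Gas5 fell by 0.95 ± 0.146 on the log2 scale (SE, edgeR adjusted p = 0.000148) and Snhg12 by 0.43 ± 0.136 (edgeR adjusted p = 0.0220). Snhg1 had a run difference of -0.14 ± 0.132 (edgeR adjusted p = 0.428) and I730028E13Rik one of 0.22 ± 0.172 (edgeR adjusted p = 0.346).

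These run differences stand beside a difference in erythroid transcripts. All 5 erythroid markers examined were higher in run 2, and their summed level was 1.21 and 2.19 FPKM in the run 1 libraries and 456 and 582 FPKM in the run 2 libraries. The globin genes Hba-a1 and Hba-a2 were at 0 in both run 1 libraries. The part of erythroid RNA in the run differences was not tested. Snhg12 did not pass between the runs by DESeq2 (adjusted p = 0.0726) or by limma (adjusted p = 0.117), and neither Gas5 (adjusted p from 0.0544 to 0.245) nor Snhg12 (0.171 to 0.814) passed by edgeR when any 1 library was left out and the run stood alone in the model. Malat1 then passed without Gata3(g/g) replicate 2 (edgeR adjusted p = 0.0343) but not without WT replicate 1 (0.124), WT replicate 2 (0.0805) or Gata3(g/g) replicate 1 (0.0663).

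The other snoRNA host genes gave a wider view of Gas5, Snhg1 and Snhg12. Of 15 further host genes tested, 5 fell under the Gata3(g/g) label with the block, 0 rose and 10 did not pass, where 2.99% of all genes fell. The 15 had a median log2 fold change of -0.47, against 0.01 for all tested genes, and 13 of them were negative. Without the block 0 of the 15 passed, and with the block limma called 0 and DESeq2 4, leaving out Snhg7 (adjusted p = 0.121). The median was -0.59 in run 1 alone, with 14 of 15 lower, and -0.30 in run 2 alone, with 11 of 15 lower. The model of genotype alone gave -0.45. It gave -0.49 without WT replicate 1 (13 of 15 lower) and -0.38 without WT replicate 2 (11 of 15). Without Gata3(g/g) replicate 1 it gave -0.41 (11 of 15), and without Gata3(g/g) replicate 2 it gave -0.79 (14 of 15).

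The 5 host genes that fell were Snhg3, Snhg7, Snhg9, Gm11974 and 2410004N09Rik, the last 2 also called Snhg15 and Epb41l4aos. Snhg3 stood at 191, 524, 119 and 321.97 FPKM, lower under the Gata3(g/g) label within each run (-0.70 ± 0.123, edgeR adjusted p = 0.00183). Snhg9 was the most abundant, at 2687, 5242, 1623 and 4117 FPKM (-0.58 ± 0.122, edgeR adjusted p = 0.00721). With genotype alone in the model, Snhg9 was at -0.087 when WT replicate 2 was left out and -0.20 when Gata3(g/g) replicate 1 was, against -0.95 for WT replicate 1 and -1.08 for Gata3(g/g) replicate 2. Both genes were also higher in run 2, the opposite of Gas5.

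Gm11974 stood at 50.9, 97.6, 36.9 and 39.0 FPKM (-0.89 ± 0.181, edgeR adjusted p = 0.00552) and 2410004N09Rik at 111, 121, 68.3 and 79.5 FPKM (-0.64 ± 0.136, edgeR adjusted p = 0.00753). Snhg7 stood at 12.004, 21.1, 6.96 and 12.2 FPKM (-0.79 ± 0.202, edgeR adjusted p = 0.0264). Snhg5 and 1500012F01Rik, also called Zfas1, were abundant host genes that did not pass, with -0.37 (edgeR adjusted p = 0.0867) and -0.47 (edgeR adjusted p = 0.0578). By run, 8 of the 15 rose in run 2, 2 fell and 5 did not pass, where 17.5% of all genes rose and 17.3% fell.

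**Figure D4:**
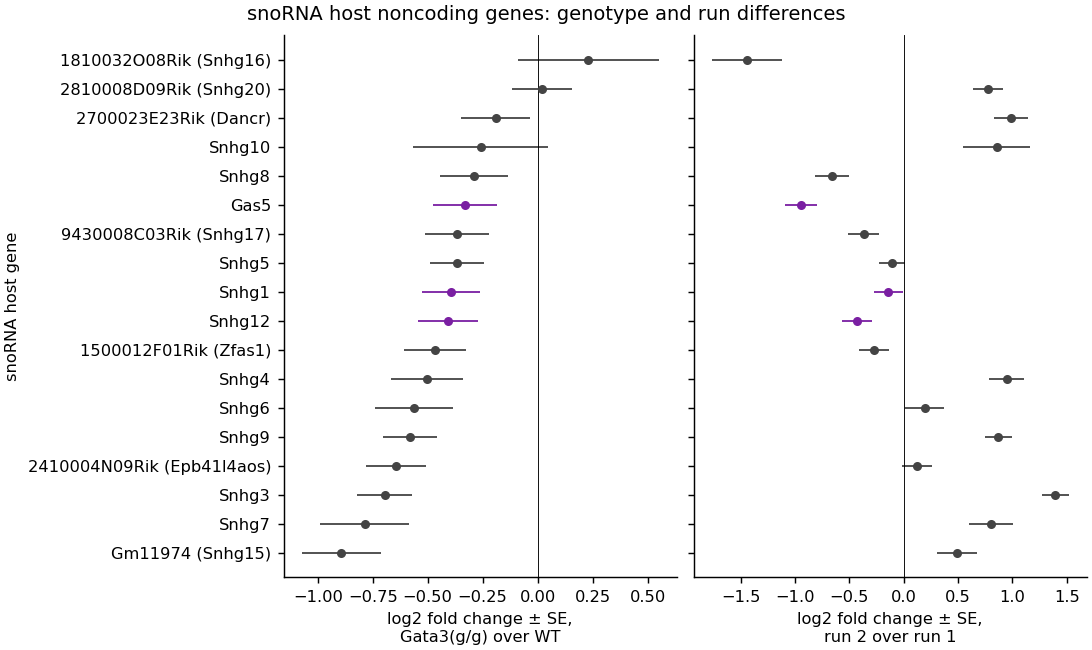
Log2 fold change with its standard error for each tested snoRNA host gene, by genotype on the left and by run on the right, with Gas5, Snhg1 and Snhg12 in purple. By genotype all but 1810032O08Rik and 2810008D09Rik lie below 0, and by run the genes lie on both sides of 0.

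The proteins that package snoRNAs were looked at beside their hosts. All 12 core and assembly proteins tested had negative genotype log2 fold changes with the block, with a median of -0.28. In run 1 alone 12 of 12 were negative (median -0.38), and in run 2 alone 9 of 12 (median -0.15). With genotype alone in the model the median was -0.29, and it was -0.11 without WT replicate 1 (7 of 12 negative), with 8 of 12 negative without Gata3(g/g) replicate 2. Of these 12 proteins 1 passed with the block, where 2.99% of all genes fell. It was Nop58, a core protein of box C/D particles that is itself a snoRNA host, at 74.7, 138, 55.1 and 103 FPKM (-0.43 ± 0.124, edgeR adjusted p = 0.0477). Fbl, the methyltransferase of the same particles, did not pass, at 96.3, 40.4, 68.4 and 43.4 FPKM (-0.20, edgeR adjusted p = 0.466). Nop58 did not pass by DESeq2 (adjusted p = 0.0847). Its genotype difference in log2 CPM was -0.42 in run 1 and -0.44 in run 2. In the model with genotype alone, it turned to a log2 fold change of 0.10 without WT replicate 2. Leaving out 1 library unbalances genotype and run, and Nop58 was higher in run 2 by 0.91 on the log2 scale.

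The table lists 7 small RNAs inside Gas5, Snhg1 and Snhg12, none with more than 98 fragments. Shown here are the best counted of them, Snord22, and Snord99, chosen after its values were seen for its low counts in WT, as the GENCODE transcripts on GRCm38 and with the first TGATGA and the last CTGA, the letters of the C and D boxes, in capitals. Snord22 lies in Snhg1 at chr19:8725866-8725991 and Snord99 in Snhg12 at chr4:132310691-132310764, both on the plus strand.
Snord22: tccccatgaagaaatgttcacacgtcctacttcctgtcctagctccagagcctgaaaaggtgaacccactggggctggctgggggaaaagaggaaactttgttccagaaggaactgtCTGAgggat
Snord99: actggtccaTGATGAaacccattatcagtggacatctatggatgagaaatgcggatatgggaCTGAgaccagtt
Snord22, in which TGATGA is not found, had 26, 50, 44 and 98 fragments, more in run 2 in each genotype (1.63 ± 0.395 on the log2 scale, edgeR adjusted p = 0.00461), while its host Snhg1 did not pass between the runs. Snord99 had 2, 0, 34 and 13 fragments and its genotype difference did not pass with the block. As it was chosen for its low counts in WT, nothing is read from that difference. The deposited FPKM of Snord99 reached 52946 from 13 fragments, so FPKM of rows this short is not comparable with that of their hosts. In Snhg12, Snora44 had 12, 24, 12 and 23 fragments, Snora16a had 0, 0, 3 and 7, and Snora61 had 0, 0, 2 and 0. In Gas5, Snord47 had 8, 4, 4 and 1 fragments, and Mir5117 was at 0 in all libraries.

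Between the runs, 4 of the 21 tested neighbours rose (Uaca, Rc3h1, Zbtb37 and Snhg3) and 4 fell (Slc3a2, Wdr74, Stx5a and Rcc1), where 17.5% and 17.3% of all genes did. Slc3a2, the heavy chain of the CD98 amino acid transporters, begins or ends 117 bases from Snhg1 and stood at 48.6, 26.8, 33.8 and 20.7 FPKM. It fell under the Gata3(g/g) label with the block (-0.45 ± 0.123, edgeR adjusted p = 0.0374) and in run 2 (-0.77, edgeR adjusted p = 0.000208). With genotype alone in the model, its genotype difference was -0.0012 when WT replicate 1 was left out and -0.15 when Gata3(g/g) replicate 2 was, against -0.82 for WT replicate 2 and -0.86 for Gata3(g/g) replicate 1. Zbtb37, a zinc finger gene 906 bases from Gas5, rose in run 2 by 1.55 on the log2 scale (edgeR adjusted p = 3.51e-05), the opposite of Gas5. Sssca1, 63968 bases from Malat1, fell under the Gata3(g/g) label with the block (-0.49 ± 0.137, edgeR adjusted p = 0.0424), and the remaining call was Snhg3, 40908 bases from Snhg12. By DESeq2 with the block neither Slc3a2 (adjusted p = 0.109) nor Sssca1 (adjusted p = 0.144) passed. Whether fragments were counted by strand is not given in the sources used here, so neighbours that overlap cannot be told apart.

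Other annotated long noncoding genes were set beside I730028E13Rik. Of 12 tested, 0 rose, 1 fell and 11 did not pass with the block, with a median log2 fold change of 0.03, where 3.90% of all genes rose and 2.99% fell. H19, the imprinted noncoding RNA of growth control, was the 1 that fell, at 29.6, 28.6, 8.52 and 6.06 FPKM (-2.01 ± 0.149, edgeR adjusted p = 2.19e-07 with the block and 0.275 without it). Pvt1, the noncoding neighbour of Myc, did not pass (-0.91, edgeR adjusted p = 0.0505).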

How the data were processed

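RNA was sequenced from 4 DN3 thymocyte samples, 2 per genotype label. The tools named in the submitters' processing notes are Bowtie2 2.1.0, TopHat2 2.0.8b and Cuffdiff 2.1.1, with mm10 as the genome. The sources used here do not state the annotation, the read length or the use of strand. Values deposited per library are, per the file headers, FPKM and the estimated count of fragments of each gene. The authors' deposited comparison table holds mean FPKM values, log2 fold changes, p-values and q-values, and only its loci (written from 1), means and log2 fold changes were used.

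Of 23285 genes, 3 that Cuffdiff marked as too deep were dropped, none of them among the 6, and 5 values marked as failed were kept. Between 97.7% and 98.9% of the estimated counts lay within 0.01 of whole numbers, and all were rounded. A count of 3 fragments corresponds to 0.112 to 0.209 CPM. Testing took in the genes whose mean FPKM was 1 or more (10224, with all 6 noncoding genes) by edgeR 4.0.16 (R 4.3.3): two-sided quasi-likelihood F test, TMM scaling (factors 0.983 to 1.02) and Benjamini-Hochberg adjustment at 0.05 over all genes. The planned model held genotype alone (2 residual degrees of freedom). By the sequence identifiers, the replicate number marks the sequencing run and so pairs the samples. Across genes, the run differences in the 2 genotypes correlated with a Pearson r of 0.754 and a Spearman rho of 0.758, and genes are not independent replicates. Values with the run as a block (1 residual degree of freedom, with the spread borrowed from all genes) are therefore given, and the run term comes from the same model. Standard errors (SE) were the size of the log2 fold change divided by the square root of F. Log2 CPM used a prior count of 2. limma 3.58.1, with pseudocounts of 1 and 0.1, and DESeq2 1.42.0 were alternatives. The scripts were tested on simulated data.

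The 6 genes, the gene lists and the markers were chosen with earlier results of these data known. Named besides the 6 are the 3 nearest listed genes on each side, the rows inside each locus, the 5 nearest profiles, and from each list up to 6 genes that passed with the block and up to 2 abundant ones that did not. Genes named for their difference between the runs were chosen after their values were seen. One marker of the planned erythroid list is not reported here.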

Additional observations from a re-analysis of the deposited data

Results flagged for a closer look

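Within each of 4 noncoding genes, the 2 libraries of one kind moved one way and those of the other kind the opposite way. None of these differences was tested, since each rests on 1 library per genotype and run. Between run 1 and run 2, I730028E13Rik changed by -0.22 log2 CPM in WT and by 0.44 in the libraries labelled Gata3(g/g). Neat1 changed between the runs by -0.14 in WT and by 0.067 in the libraries labelled Gata3(g/g), and Snhg1 by -0.35 and 0.060. For Malat1 the genotypes differed by 0.11 log2 CPM in run 1 and by -0.12 in run 2.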

How the results depend on the processing

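The replicate block decided the genotype comparison. With genotype alone edgeR called 0 of 10224 genes (393 had an unadjusted p under 0.05, and the smallest adjusted p was 0.0995), and again 0 without TMM scaling or with a minimum mean FPKM of 5. DESeq2 called 88, the fit without a filter 58, and limma 5 with either pseudocount. With the replicate block edgeR called 705, or 674 without TMM scaling, 988 without a filter and 348 with the FPKM minimum at 5. DESeq2 called 417 with the block, and limma 18 and 42 with pseudocounts of 1 and 0.1. Leaving out each library in turn gave 1 to 11 calls, from a model with genotype alone, because the model with the block then has no residual degrees of freedom. Without TMM scaling 68.8% of the calls with the block were higher, against 56.6% with it, and the median of all genes was 0.06. The run comparison called 3560 genes, 2263 by DESeq2, 1451 and 1745 by limma, 751 with the run alone in the model and 82 to 1536 with each library left out. Without a filter 33.4% of its calls were higher, against 50.4%, with a median of 0.11. Among the noncoding genes, I730028E13Rik ran from 4.08 (limma, pseudocount 1) to 5.06 by genotype over all settings, and the genotype ranges with a library left out included both signs for Malat1 (-0.89 to 0.94) and Gas5 (-0.84 to 0.24). Over the libraries left out, Snhg7 ran from -1.23 to -0.32 by genotype, Gm11974 from -1.38 to -0.42 and Uaca from 0.56 to 1.26. Without WT replicate 2 the genotype difference of Snhg3 became 0.18 (lowest value -1.54, highest 0.18 over the libraries left out) and that of Nop58 0.10 (-0.95 to 0.10). The run difference changed sign for I730028E13Rik (-0.51 when WT replicate 1 was left out, with a range of -3.81 to 4.002 over the 4 libraries), for Neat1 (0.00811 with the FPKM minimum at 5, 0.03 when Gata3(g/g) replicate 1 was left out, -0.21 to 0.13 over the libraries) and for Snhg1 (0.17 without WT replicate 1, -0.44 to 0.17 over the libraries). Leaving out 1 library unbalances genotype and run by construction, and for the other changes the cause was not tested.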

Other observations

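Other noncoding RNAs and RNA-binding proteins also differed between the runs, where 34.8% of all tested genes did, beside the erythroid transcripts described above, whose part was not tested. Kcnq1ot1, the imprinted antisense RNA of Kcnq1, had 1147, 7762, 1254 and 7542 fragments and rose in run 2 by 3.25 ± 0.136 on the log2 scale. Of 8 structural noncoding RNAs tested, 0 passed by genotype with the block, where 6.90% of all genes did. In run 2, 3 of them rose and 2 fell, where 17.5% and 17.3% of all genes did. Rmrp and Rpph1, the RNAs of the RNase MRP and RNase P enzymes, rose by 1.06 and 0.97, and Scarna13, a Cajal body RNA, by 2.52. Rmrp did not pass by DESeq2 (adjusted p = 0.121) or by limma (adjusted p = 0.0801 and 0.0693 with pseudocounts of 1 and 0.1). Nor did Rmrp pass by edgeR with the run alone in the model (adjusted p = 0.0590). Terc, the telomerase RNA, fell by 2.33, and the vault RNA Vaultrc5 fell by 1.62.

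The protein partners of Malat1 and Neat1 bodies did not pass by genotype with the block in any of 17 paraspeckle genes (median -0.07) or 18 speckle and SR protein genes (median -0.01), nor did any of 15 nonsense-mediated decay genes (median -0.09). As 6.90% of all tested genes passed, few calls would be looked for in lists this short, and nothing is read from these counts. By run, 5 paraspeckle genes rose and 0 fell, 3 speckle genes rose and 6 fell, and 4 decay genes rose and 2 fell. Of all tested genes, 17.5% rose and 17.3% fell. Srrm2, a scaffold of nuclear speckles, stood at 60.5, 111, 64.3 and 101 FPKM, higher in run 2 as Malat1 was, while Tra2a, a splicing factor, stood at 160, 97.6, 138 and 81.8 FPKM.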
